A study of Neurospora crassa with 22 samples.

Results

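The 4 β-glucosidase genes described here, of the filamentous fungus Neurospora crassa, were followed through every deposited list of ChIP-seq peaks for the regulators CLR-1, CLR-2 and XLR-1. They were gh1-1 (NCU00130), gh3-3 (NCU08755), gh3-4 (NCU04952) and gh3-6 (NCU07487), 4 of the 9729 protein-coding genes on the 7 chromosomes. A peak belonged to one of them when the gene columns of the deposited list named the gene, or when the peak summit lay within 3 kb of its start codon. This gave 61 of the 42691 deposited peaks. For 2 of them the gene name was a fault of the columns, a peak on another chromosome and an entry copied from another list, which left 59 peaks. The farthest summit inside the 3 kb window was 2710 bp from a start codon, and the nearest outside it 3458 bp. Of the 59 peaks, gh1-1 had 24, gh3-3 had 14, gh3-4 had 3 and gh3-6 had 18.

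β-Glucosidases carry out the last step of cellulose breakdown: they split cellobiose and longer cellodextrins, which cellulases release, into glucose. In N. crassa cellodextrins are taken up by transporters and cut inside the cell by the product of gh1-1, or are cut outside it by secreted enzymes of family GH3, of which the product of gh3-4 is the main one. Strains that lack gh1-1, gh3-3 and gh3-4 are used to study how cellobiose induces cellulase genes, since without these enzymes the inducer lasts longer. CLR-1 and CLR-2 are zinc cluster transcription factors needed for growth on cellulose, and XLR-1 is the zinc cluster factor needed for growth on xylan.

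Mycelium of strain background OR74A was grown for 16 h on sucrose in Vogel's medium and then transferred to Avicel, a crystalline cellulose, to xylan or again to sucrose. The time after the transfer is written as 4 or 24 with no unit and was read as hours from knowledge of the study. CLR-1-GFP (his-3::p_ccg1::clr1-GFP with the native gene deleted, deltaclr1::HygR, mat A) gave 1 list on Avicel at 24 h, 3 lists on Avicel at 4 h and 2 lists on sucrose at 4 h. CLR-1-V5 (clr1-V5::HygR, mat a, in a deltamus51::bar strain), whose genotype lists no ccg-1 promoter, gave 1 list on Avicel at 4 h, and its antibody field reads none. mCherry-CLR-2 (his-3::p_ccg1::mCherry-clr2) gave 1 list on Avicel at 24 h, from a heterokaryon with no clr-2 deletion listed (mat a), and 3 lists on Avicel at 4 h, from a deltaclr2::HygR strain (matA). XLR-1-GFP (his-3::p_ccg1::xlr1-GFP in a deltaxlr1::HygR strain) gave 3 lists on Avicel and 3 on xylan at 4 h. The GFP and mCherry constructs were driven by the ccg-1 promoter and not by the factor's own, which limits them as models of native levels. The labels do not say whether replicates came from separate cultures. Inputs and mock pulldowns (5 of the 22 samples) came without a peak list and are not analysed here.

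Each of the 17 lists held between 701 and 8194 peaks, and the total reads behind them are unknown. The CLR-1 list at 24 h was the longest, with short peaks (median length 225 bp), and 79.6% of all genes had one of its summits within 3 kb of the start codon. XLR-1 list 3 on Avicel was also long, with 6904 peaks and 78.3% of genes. In CLR-2 at 4 h the authors' fold enrichment was below 1 for 94.8% of the peaks of list 1 and for 33.9% of those of list 3, and the median FDR of list 2 was 100%. The median FDR of the CLR-2 list at 24 h was 51.2%. Tags, scores and folds are the authors' values for single peaks, so they are given list by list and ranked only within a list. A score percentile of 95 means that a peak scored above 95% of the other peaks of its list. Scores end near 3100, where peaks tie. In CLR-2 list 1 at 4 h 1093 of 2999 peaks reached 3100 or more, against 4 to 59 in the CLR-1-GFP Avicel lists at 4 h. A tied peak of that CLR-2 list therefore stands well below 100, as gh7-1 did at 81.3.

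The 4 genes lie at 4 places of the NC12 assembly. gh1-1 is on chromosome III from 2730966 to 2733380 on the minus strand, with its start codon at 2732778 and a 5′ untranslated stretch of 602 bp in the annotation. gh3-3 is also on chromosome III, from 5254966 to 5258478 on the minus strand, with its start codon at 5258086. gh3-4 is on chromosome IV from 846341 to 849048, minus strand, with its start codon at 848978, only 70 bp from the annotated gene end. gh3-6 is on chromosome I from 448859 to 451692 on the plus strand, and its annotation begins at the start codon. The intergenic space upstream was 1725 bp for gh1-1, 3289 bp for gh3-3, 1006 bp for gh3-4 and 6948 bp for gh3-6.

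**Figure D1:**
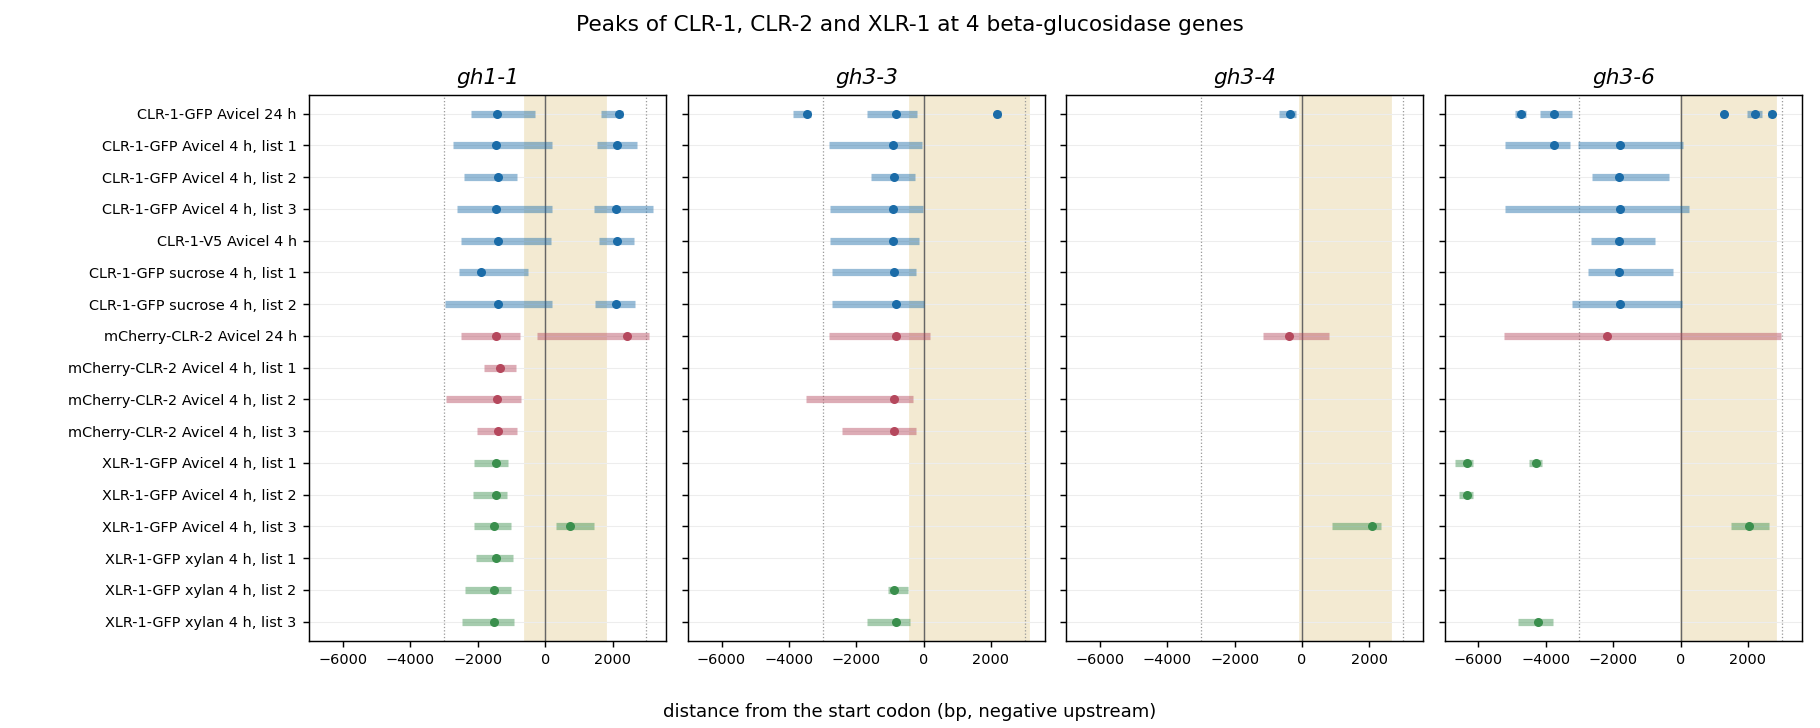
Peaks at the 4 genes in each of the 17 lists, as distance from the start codon in bp (x axis, negative upstream), with lists down the y axis. Bars are peak intervals and dots are summits, in blue for CLR-1, red for CLR-2 and green for XLR-1. Shading marks the annotated gene and dotted lines the 3 kb window. gh1-1 has an upstream dot in all 17 rows, gh3-3 in 12, gh3-6 in 7 within the window and gh3-4 in 2.

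gh1-1 had an upstream peak in every list, of every factor, carbon source and time. A summit within 3 kb remained in 12 of the 17 lists at a fold of at least 5. It also remained in 12 when each list was cut to its 701 best-scored peaks. At an FDR of at most 5%, which 1 list lacks, 14 lists remained, and 14 had a summit within 1500 bp. Only 4 of the 9729 genes, 0.0411%, had a summit within 3 kb in all 17 lists. The others were NCU04502, NCU03719 and NCU00132, the neighbour on the upstream side, which shares the gh1-1 peak and was counted by its gene ends because its start codon is not known here. The 17 summits lay between 1348 and 1907 bp upstream of the start codon, with a median of 1452 bp, on chromosome III between 2734126 and 2734685. The median summit was 850 bp beyond the annotated 5′ end of the gene, in the intergenic space of 1725 bp. The position thus does not tie this site to gh1-1 rather than to NCU00132.

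For CLR-1, the gh1-1 summit lay 1430 bp upstream on Avicel at 24 h, 1454, 1404 and 1447 bp upstream in the 3 Avicel lists at 4 h, 1413 bp upstream with the V5 tag, and 1907 and 1388 bp upstream in the sucrose lists. The summit of sucrose list 1 stood apart from the other 6, which lay between 1388 and 1454 bp. At 2734685 it was nearer to the annotated end of NCU00132, at 2735106, than to that of gh1-1, at 2733380. The folds were 7.08 at 24 h, 22.3, 27.7 and 20.2 on Avicel at 4 h, 14.5 with V5, and 11.9 and 3.68 on sucrose. Each was above the median fold of its list except at 24 h, where the median was 9. On Avicel at 4 h the 3 peaks held 923, 114 and 1205 tags and were 2948, 1549 and 2805 bp long. At 24 h the peak held 1004 tags, where the median peak of the list held 26. The score percentiles of gh1-1 were 91.2 at 24 h, 99.2, 95.7 and 98.5 on Avicel at 4 h, 99.4 with V5, and 99.1 and 96.1 on sucrose. All 7 CLR-1 lists thus placed the site among their best-scored 10% of peaks.

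For CLR-2 the same site of gh1-1 was listed with low folds, above the list median at 24 h and in list 3 at 4 h only. Its summit lay 1457 bp upstream at 24 h and 1348, 1417 and 1396 bp upstream in the 3 lists at 4 h. The fold was 3.07 at 24 h, with an FDR of 3.19%. At 4 h the folds were 0.40, 1.93 and 1.59, with FDRs of 38.6%, 100% and 1.01%. The score percentiles were 77.6 at 24 h and 18.3, 8.23 and 78.1 at 4 h, so 2 of the 3 lists at 4 h placed the peak among their weaker ones.

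gh1-1 was the only one of the 4 genes at which XLR-1 had an upstream summit within 3 kb on Avicel. The summits lay 1452, 1452 and 1533 bp upstream on Avicel, and 1458, 1519 and 1516 bp upstream on xylan. The Avicel folds were 28.9, 27.8 and 9.46, and the xylan folds 47.6, 78.3 and 40.2, above the median of the list in all 6 lists. These rested on 54, 43 and 78 tags in the Avicel lists and on 61, 123 and 252 tags in the xylan lists. On Avicel the score percentiles were 98.5, 94.0 and 67.1, against 91.3, 97.0 and 96.7 in the xylan lists. The lowest of the 6 came from the long Avicel list 3, which also held a peak inside gh1-1, 745 bp downstream of the start codon, with a fold of 9.55 and 71 tags.

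A further site lay beyond the 3′ end of gh1-1, with summits between 2730358 and 2730677, 289 to 608 bp past the annotated end. It was listed for CLR-1 at 24 h (fold 11.8), in Avicel lists 1 and 3 at 4 h (8.98 and 13.6), with V5 (5.72) and in sucrose list 2 (2.5), and for CLR-2 at 24 h (2.0, FDR 71.7%). The CLR-2 peak was 3335 bp long and ran from -257 to 3077 bp relative to the gh1-1 start codon. Its summit, at 2730358, stood apart from those of CLR-1, at 2730594 to 2730677. No XLR-1 list and no CLR-2 list at 4 h had this site. The nearest start codon to each of these summits was that of NCU16661, the next gene on the same strand, 225 to 544 bp away, so the position does not tie this site to gh1-1. The gene columns of the lists named gh1-1 for none of these 6 peaks.

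gh3-3 had an upstream peak in 12 of the 17 lists, all within 90 bp. The summits lay 814 to 904 bp upstream of the start codon, median 890 bp, on chromosome III between 5258900 and 5258990. In CLR-1 lists the distance was 834 bp at 24 h, 898, 887 and 897 bp on Avicel at 4 h, 904 bp with V5, and 893 and 814 bp on sucrose. The start codon of NCU08753, which faces gh3-3 across the same intergenic space, was at least 2778 bp from each of these summits.

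The CLR-1 folds at gh3-3 were 10.6 at 24 h, 19.8, 18.9 and 20.9 on Avicel at 4 h, 15.9 with V5, and 9.11 and 3.78 on sucrose. In each of the 7 lists the fold was above the median, and the score percentiles ran from 91.9 at 24 h to 99.8 with V5, where the peak shared the best score of 1528 peaks. The 3 Avicel peaks at 4 h held 969, 96 and 1401 tags. The CLR-1 list at 24 h held further peaks of gh3-3, one 2190 bp downstream of the start codon inside the gene (25 tags) and one 3458 bp upstream (35 tags), which lay 224 bp from the start codon of NCU08753.

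CLR-2 peaks at the gh3-3 site had low folds, but each was above the median of its list. The site was listed at 24 h (817 bp upstream, fold 2.62, FDR 18.6%) and at 4 h in list 2 (888 bp, fold 2.69, FDR 57.3%) and list 3 (892 bp, fold 1.35, FDR 1.8%), but not in list 1. The medians of these lists were 2.26, 2.25 and 1.14, and the score percentiles of the peaks were 66.5, 76.2 and 73.1. XLR-1 had no peak within 3 kb of gh3-3 in its 3 Avicel lists. On xylan, list 2 had a summit 894 bp upstream with a fold of 6.90 from 12 tags, and list 3 one 828 bp upstream with a fold of 6.69 from 67 tags. Both folds were below the median of their lists, which were 14.96 and 8.65, and list 1 had no peak. Their score percentiles were 6.88 and 66.3.

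**Figure D2:**
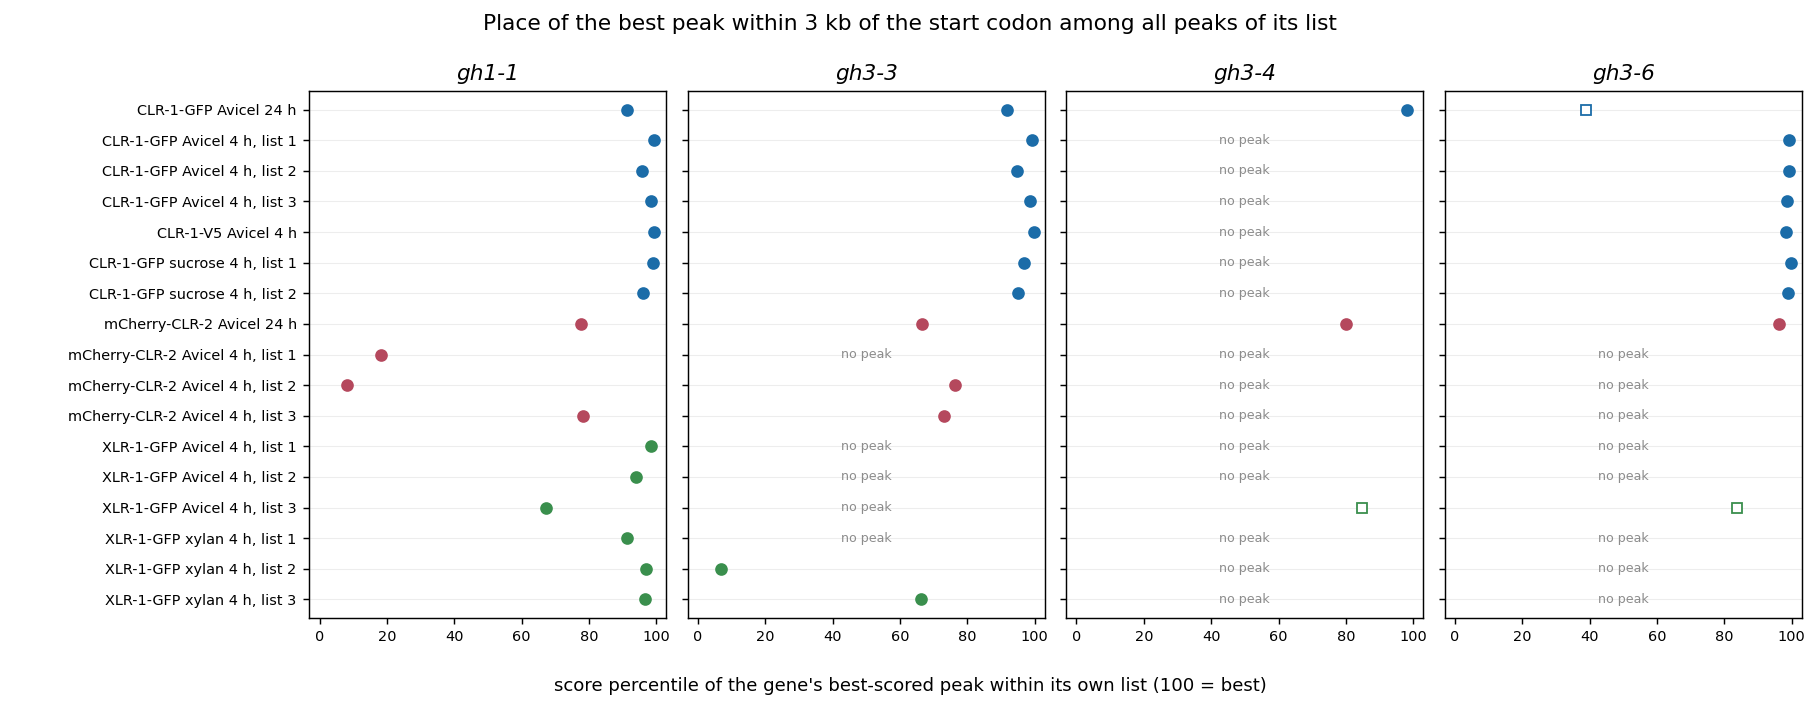
Score percentile of the best-scored peak within 3 kb of each start codon among all peaks of the same list (x axis, percent, 100 is best), by list down the y axis. Filled circles are summits upstream of the start codon and open squares summits downstream of it, in blue for CLR-1, red for CLR-2 and green for XLR-1. CLR-1 circles sit at 91.2 or above in every panel, while CLR-2 circles at 4 h run from 8.23 to 78.1.

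gh3-6, a further member of family GH3, had an upstream site that CLR-1 lists at 4 h held near the top. The summits lay 1801, 1825 and 1810 bp upstream on Avicel, 1816 bp upstream with V5, and 1822 and 1805 bp upstream on sucrose. These 6 summits span 24 bp. The peaks held 1312, 214 and 2308 tags on Avicel, 565 with V5, and 1121 and 3542 on sucrose, each above the median of its list. The folds were 24.3, 30.4 and 24.1 on Avicel, 11.5 with V5, and 14 and 3.85 on sucrose, and the score percentiles were at least 98.4 in these 6 lists. In the sucrose lists the peak ranked 1 of 1566 and 2 of 2111 by score, ties included. The fold of 3.85 in sucrose list 2 was close to the highest of that list, 3.92.

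At 24 h the CLR-1 list had no summit at this site of gh3-6. Its peaks near the gene lay 3755 and 4745 bp upstream, and 1292, 2225 and 2710 bp downstream of the start codon inside the gene, with 257, 142, 24, 59 and 34 tags. The best-scored peak within 3 kb was at 2710 bp, at a score percentile of 39.01. Avicel list 1 at 4 h also had the peak farther upstream, at 3749 bp with a fold of 5.48. That summit and the one at 3755 bp at 24 h were 6 bp apart, and the start codon of NCU16314, which faces gh3-6, was 3538 and 3532 bp from them. It was 2542 bp from the summit at 4745 bp at 24 h, and so closer to each of these summits than the start codon of gh3-6.

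CLR-2 had no peak within 3 kb of gh3-6 in its 3 lists at 4 h. At 24 h its list had 1 broad peak of 8237 bp that ran from -5256 to 2980 bp relative to the start codon and so covered the whole gene. It had a fold of 5.17, 13268 tags and a score of 3100, which many peaks of that list shared. Its rank was 8 of 1672, ties included, at a score percentile of 96.2, and 121 peaks of the list reached 3100 or more. The summit of this peak was 2171 bp upstream. This summit lay farther out than those of CLR-1. XLR-1 had no upstream summit within 3 kb of gh3-6 in any of its 6 lists. Avicel list 3 had a peak inside the gene, 2036 bp downstream of the start codon, with a fold of 10.3. Farther out, XLR-1 summits lay 4303 bp upstream in Avicel list 1 and 4304 and 4232 bp upstream in xylan lists 2 and 3. That of xylan list 2 is known from its position alone. The start codon of NCU16314 was closer to those of Avicel list 1 and xylan list 3, at 2984 and 3055 bp. XLR-1 summits also lay 6350 and 6354 bp upstream in Avicel lists 1 and 2, where that start codon was again closer, at 937 and 933 bp.

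gh3-4, which encodes the main secreted β-glucosidase, had the fewest peaks. It had an upstream summit only at 24 h. The CLR-1 list placed it 363 bp upstream, with a fold of 10.6, 165 tags and rank 162 of 8194. The CLR-2 list placed it 380 bp upstream, with a fold of 2.90, an FDR of 1.78%, 2416 tags and rank 337 of 1672. The 2 summits were 17 bp apart, at 849341 and 849358 on chromosome IV.

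In none of the 3 CLR-1-GFP Avicel lists, the V5 list, the 2 sucrose lists, the 3 CLR-2 lists or the 3 xylan lists at 4 h was there a summit within 3 kb of the gh3-4 start codon. The remaining peak was that of XLR-1 on Avicel list 3, 2063 bp downstream of the start codon inside the gene, with a fold of 9.55 and 112 tags. That list also held in-gene peaks of gh1-1 and gh3-6, at folds of 9.55 and 10.3, and the median fold of the list was 8.30.

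**Figure D3:**
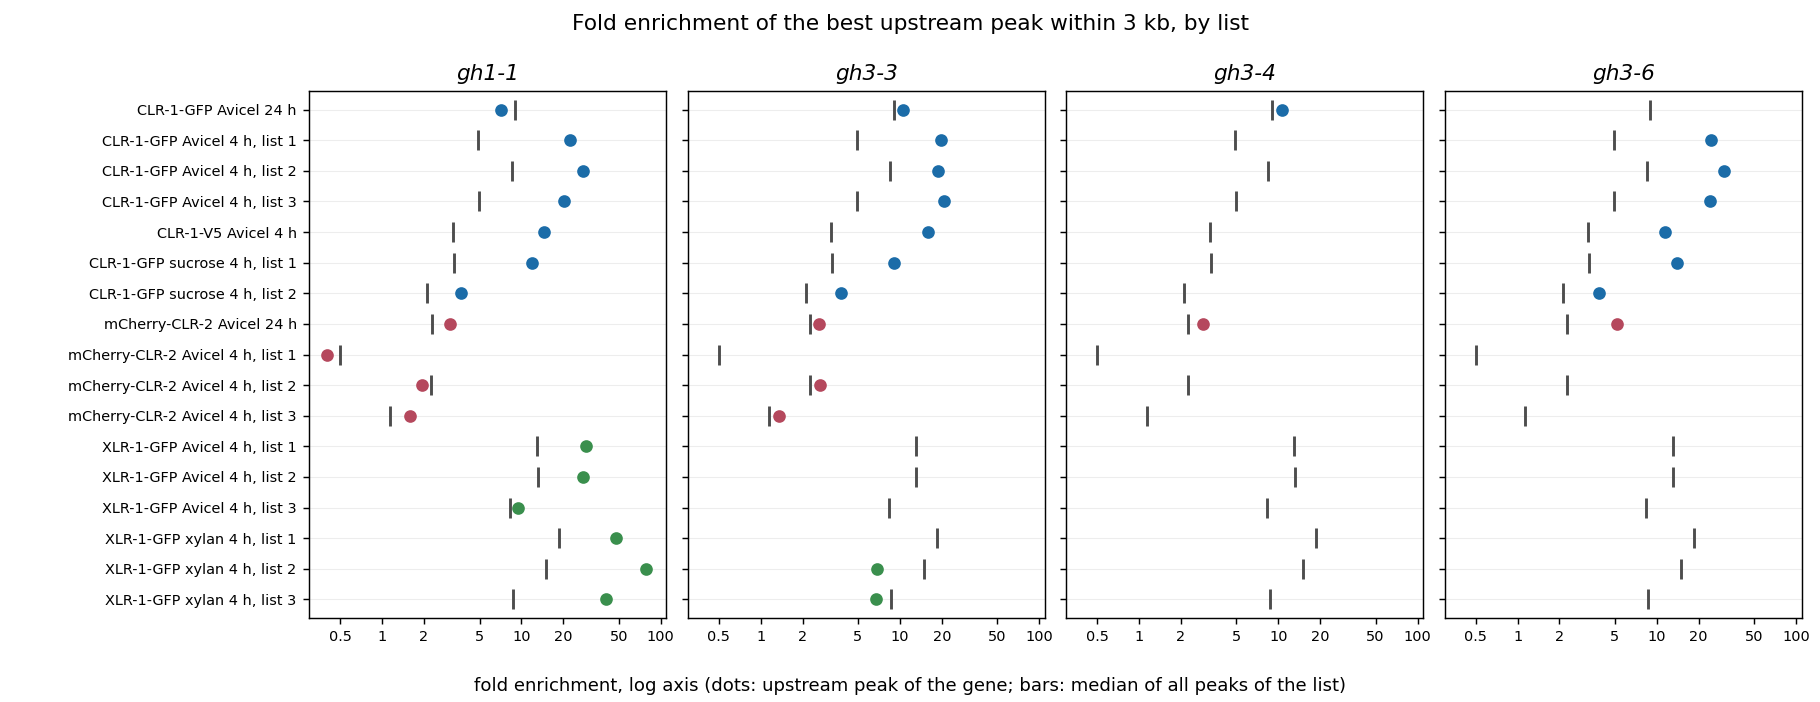
The authors' fold enrichment of the best upstream peak within 3 kb of each gene (dots, log x axis), with the median fold of all peaks of the same list (vertical bars), by list down the y axis. Blue is CLR-1, red CLR-2 and green XLR-1, and folds are read only against the bar of the same row. At gh3-6 all 7 dots lie above the bar, at gh1-1 14 of 17, at gh3-3 10 of 12 and at gh3-4 both.

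The Avicel and sucrose lists of CLR-1 at 4 h address whether it sits at these genes without cellulose. The rule for a group asked for a summit within 3 kb of the start codon in at least 2 lists. By it 3 of the 4 genes, gh1-1, gh3-3 and gh3-6, had a CLR-1 peak on Avicel at 4 h, where 17.5% of all genes did. The same 3 genes had one in both sucrose lists, where 7.24% of all genes did. Within 1500 bp of the start codon only gh3-3 remained on sucrose, as 4.01% of all genes did. gh3-4 had none on either. No gene of the 4 was in all Avicel lists and no sucrose list, as 0.637% of all genes were, or in both sucrose lists and no Avicel list, as 0.206% were.

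Summit positions on Avicel and sucrose did not separate at any of the 3 genes. The mean position relative to the start codon was -1812 ± 12.1 bp on Avicel (SD, n = 3) and -1814 ± 12.02 bp on sucrose (SD, n = 2) at gh3-6. At gh3-3 it was -894 ± 6.08 bp on Avicel and -854 ± 55.9 bp on sucrose, and at gh1-1 -1435 ± 27.1 bp and -1648 ± 367 bp. The two-sided exact permutation p was 1 for gh3-6, 0.4 for gh3-3 and 0.8 for gh1-1, where the smallest p that 3 lists against 2 can give is 0.2. Of the 588 genes with at least 2 lists on each side, 23.8% had positions that did not overlap. Whether the amount of CLR-1 at these sites differs between the carbon sources cannot be read from folds of separate lists.

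The V5 strain, whose construct lists no ccg-1 promoter, gave the same 3 genes on Avicel at 4 h, where 11% of all genes had a peak. Its summits at gh1-1 and gh3-6, at 1413 and 1816 bp, lay inside the ranges of the CLR-1-GFP Avicel lists at 4 h, 1404 to 1454 bp and 1801 to 1825 bp. Its summit at gh3-3, at 904 bp, lay 6 bp beyond their range of 887 to 898 bp. There was 1 V5 list, so no test was made.

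Between the times, gh3-4 and gh3-6 differed in their upstream peaks. gh3-4 had one at 24 h and none at 4 h for both CLR-1 and CLR-2. This contrast was common among genes in the CLR-1 lists. A summit within 3 kb was listed for 79.6% of all genes at 24 h, and for 30.4% in any list at 4 h. The CLR-2 shares were 26.6% at 24 h and 50.4% in any list at 4 h. How many genes showed the contrast with CLR-2 was not counted. For CLR-1-GFP on Avicel, gh3-6 had its upstream site in no list at 24 h and in 3 of 3 at 4 h, at 1801 to 1825 bp. For CLR-2 it had an upstream summit within 3 kb in the list at 24 h and in 0 of 3 at 4 h. That summit, at 2171 bp in a peak of 8237 bp, lay outside the CLR-1 range. At 24 h all 4 genes had a CLR-1 summit within 3 kb, but so did 79.6% of all genes, and for gh3-6 the summits were inside the gene. With CLR-2 all 4 genes had a summit within 3 kb at 24 h, each of them upstream, where 26.6% of all genes had one. At an FDR of at most 5% gh3-3 was lost at 24 h and the other 3 remained, as 5.98% of all genes did. At 4 h 2 of the 4, gh1-1 and gh3-3, had a CLR-2 summit within 3 kb in at least 2 lists, where 17.9% of all genes did. The count at 4 h was 1 without list 2 (14.1% of all genes) or without list 3 (4.85%). It was 0 at an FDR of at most 5% (4.64%). Each factor had 1 list at 24 h, so these differences have no replicate check and no test. For CLR-2 the strain also differed between the times, and time and strain cannot be told apart.

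For XLR-1 the carbon sources were Avicel and xylan. On Avicel 1 of the 4 genes, gh1-1, had a peak in at least 2 lists, where 35.7% of all genes did. On xylan 2 of the 4, gh1-1 and gh3-3, did, where 10.4% of all genes did. The xylan count was 1 without list 2 (6.43% of all genes) or without list 3 (6.91%). gh3-3 was in 0 of 3 Avicel lists and 2 of 3 xylan lists (two-sided Fisher's exact p = 0.4). The gh1-1 summit averaged -1479 ± 46.8 bp on Avicel and -1498 ± 34.4 bp on xylan (SD, n = 3 each), a difference of 18.7 bp (exact permutation p = 0.8). With 3 lists against 3 the smallest p is 0.1, and 33.3% of the 628 genes with at least 2 lists on each side had positions that did not overlap.

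Between factors on Avicel at 4 h, gh3-6 and gh3-3 were each in all lists of one and in none of another. gh3-6 was in 3 of 3 CLR-1 lists and 0 of 3 CLR-2 lists, a pattern that 0.915% of all genes showed. gh3-3 was in 3 of 3 CLR-1 lists and 0 of 3 XLR-1 lists, a pattern that 0.586% of all genes showed. For both, Fisher's exact p was 0.1, the smallest that 3 lists against 3 allow. Adjusted by the Benjamini-Hochberg method over the genes with a peak in either group (5735 and 8223 genes), the p was 1. The separation of gh3-6 did not hold within 1500 bp, since its summits lie farther out. gh3-6 was also in 1 of 3 XLR-1 lists, through the in-gene peak of list 3. Without that list it too was in all CLR-1 lists and in no XLR-1 list, as 2 of the 4 genes then were. In either direction 7.81% of all genes separated without that list and 6.003% with it.

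At gh1-1 the 9 summits of the 3 factors on Avicel at 4 h lay between 1348 and 1533 bp upstream. The mean was -1435 ± 27.1 bp for CLR-1, -1387 ± 35.4 bp for CLR-2 and -1479 ± 46.8 bp for XLR-1 (SD, n = 3 each). The difference of CLR-1 minus CLR-2 was -48 bp (exact permutation p = 0.2, with 33.6% of 652 genes not overlapping), and that of CLR-1 minus XLR-1 was 44 bp (p = 0.3, exact, with 54.8% of 890 genes not overlapping). The CLR-2 summits, at 1348 to 1417 bp, and the XLR-1 summits, at 1452 to 1533 bp, did not overlap. That difference was 92 bp (exact permutation p = 0.1, adjusted 0.725 over 948 genes), and 44.8% of those genes had positions that did not overlap. At gh3-3 CLR-1 and CLR-2 means were 4 bp apart, at -894 and -890 bp (exact permutation p = 0.6).

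**Figure D4:**
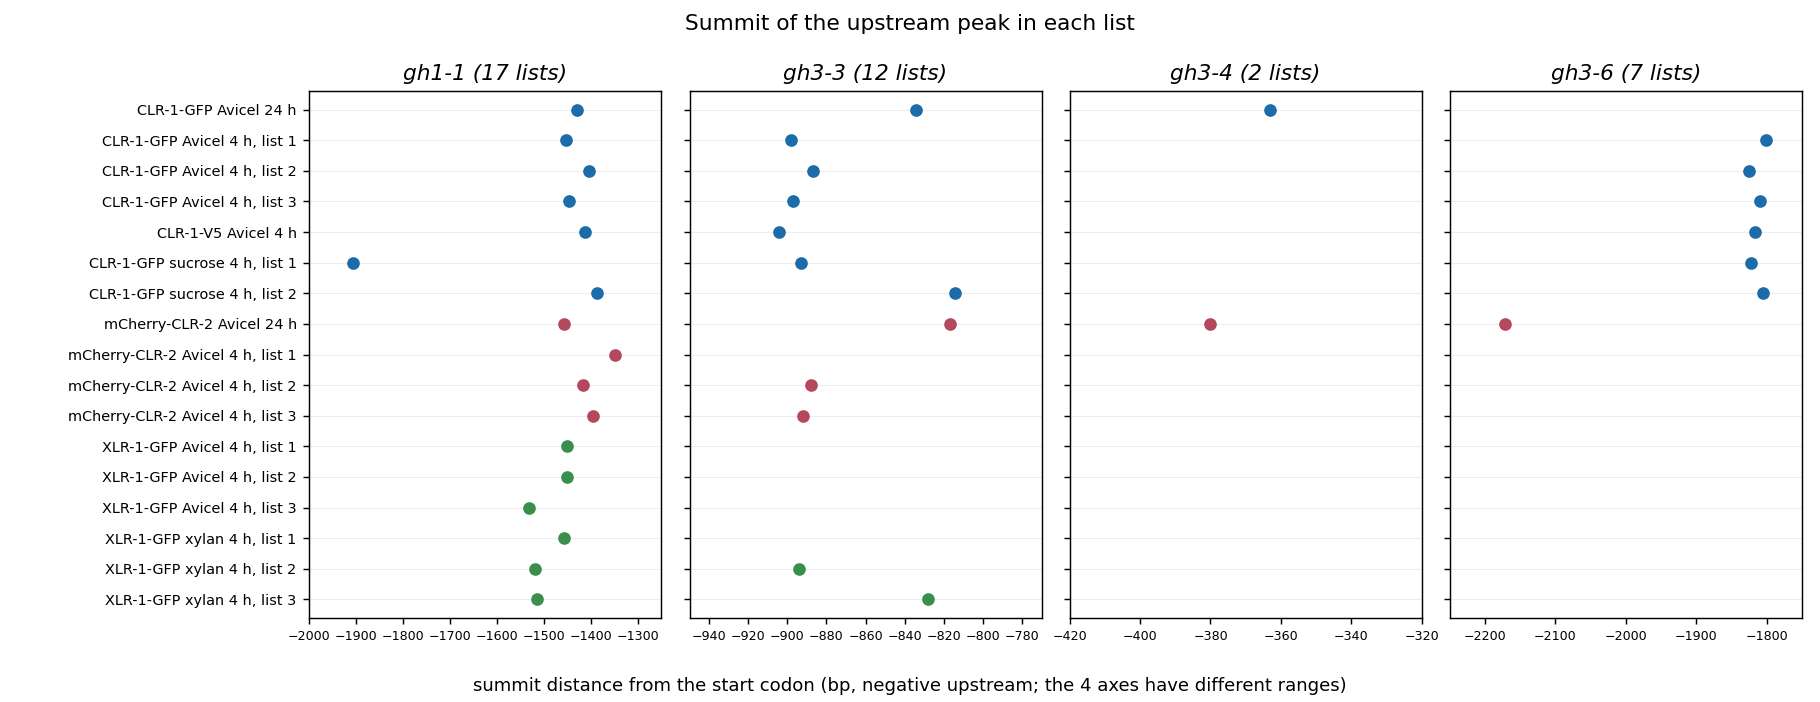
Summit of the best upstream peak within 3 kb in each list, as distance from the start codon in bp (x axis, negative upstream, a different range in each panel), by list down the y axis. Blue is CLR-1, red CLR-2 and green XLR-1. At gh3-6 the 6 CLR-1 dots span 24 bp and CLR-2 at 24 h stands at -2171 bp, and at gh1-1 sucrose list 1 stands at -1907 bp.

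Other genes of cellulose use gave a frame for these counts. The list held the cellulase genes cbh-1, gh6-2, gh6-3, gh5-1 and gh7-1, the cellobiose dehydrogenase gene cdh-1, the cellodextrin transporter genes cdt-1 and cdt-2, and clr-1 and clr-2. All 10 had a CLR-1 peak on Avicel by the same rule both at 24 h, where 79.6% of all genes did, and at 4 h, where 17.5% did. With V5 7 of the 10 did, against 11% of all genes, and on sucrose 3 did (gh6-3, gh7-1 and cdt-1), against 7.24%. For CLR-2 the count was 10 of 10 at 24 h, where 26.6% of all genes were called, and 8 of 10 at 4 h, where 17.9% were. XLR-1 had 4 of the 10 on Avicel (cdh-1, cdt-1, cdt-2 and clr-1), near the 35.7% of all genes, and 2 on xylan (cdt-2 and clr-1), where 10.4% of all genes were called.

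The transporter genes, whose products bring in the cellodextrins that gh1-1's product cuts, differed from gh1-1 in their lists. cdt-1 and cdt-2 were each in 13 of 17 lists. cdt-1 was in both sucrose lists, with summits 1035 and 982 bp upstream and score percentiles of 98.1 and 94.7, and in no xylan list. cdt-2 was in all 6 XLR-1 lists, with summits 2636 to 2644 bp upstream and score percentiles of at least 95.7.

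Another 3 β-glucosidase genes were taken for comparison. gh3-1 (NCU03641) was in 3 of 17 lists, gh3-2 (NCU08054) in 4 and gh3-5 (NCU05577) in 9. On Avicel at 4 h gh3-5 was the only one with a CLR-1 peak in at least 2 lists, 173 bp upstream in lists 1 and 3 at score percentiles of 66.02 and 76.3. On Avicel at 4 h XLR-1 had a peak in 3 of 3 lists at both gh3-2 and gh3-5, as 12.3% of all genes did. The gh3-2 summits lay 683 and 680 bp downstream of the start codon in lists 1 and 2 and 1254 bp upstream in list 3. Those of gh3-5 lay 1323, 1597 and 566 bp downstream. All 3 genes had a CLR-1 peak at 24 h, as 79.6% of all genes did. None of the 3 had a peak in both sucrose lists, in at least 2 CLR-2 lists at 4 h or in at least 2 xylan lists. The best-scored peaks of gh3-1 lay 946 bp upstream for CLR-1 and 2198 bp upstream for CLR-2, both at 24 h, and 2319 bp downstream of the start codon in XLR-1 Avicel list 3.

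The genes most like each of the 4 in their presence over the 17 lists were taken from all genes more than 10 kb away. For gh1-1 they were NCU04502 and NCU03719, alike in 17 of 17 lists, then msh3 (NCU08115), NCU09690 and NCU09689, alike in 16. For gh3-3 they were NCU16754, NCU16755, NCU02008 and NCU08635, alike in 16, and NCU00318, alike in 15. gh3-6 shared its pattern in all 17 lists with 15 genes, of which qde-1, sre, NCU04930, NCU04931 and stk-40 were closest by score percentile. The pattern of gh3-4 was common, shared in all 17 lists by 186 genes, with NCU01039, NCU01041, NCU09370, NCU09522 and NCU09521 closest.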

How the data were processed

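The submitters' processing notes name Bowtie2 as the aligner, and the file headers name MACS as the peak caller. Their settings and controls are not given in the sources at hand. The deposited tables hold, for each peak, a count of tags, a score (10 times the -log10 of its p-value), the authors' fold enrichment (a ratio), and an FDR in percent, which the CLR-1 list at 24 h lacks. Library depth is unknown, so no interval or floor was computed. Tags per peak ran from 10 to 40878.

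Lists were grouped by the labels, and list numbers are those of the deposited tables, which do not name the library. Another 4 columns of the tables were not used. Summits were set against start codons on NC12, taken from the gene columns for 6873 genes and from distances inside genes for 1270. The other 1586 genes counted when either end of the annotated gene lay within 3 kb, which moved no share of all genes by more than 3.8 percentage points. Peaks outside the 7 chromosomes (1187) were assigned to no gene, but they were kept in the list sizes, ranks, score percentiles and medians. The gene columns of XLR-1 xylan list 2 repeat those of list 1 in 958 of 958 entries. Genes of that list were assigned by summit alone.

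Presence was compared per gene by two-sided Fisher's exact tests over lists and position by two-sided exact permutation tests, in 5 pairs of groups. Presence was adjusted over all genes with a peak in at least 1 list of the pair. Position was adjusted over all genes with at least 2 lists on each side. The score percentile is the share of the other peaks of a list with a lower score, with ties shared out evenly. The named genes were the 4 members, 10 genes of cellulose use, 3 other β-glucosidase genes, the neighbours that share peaks, and the 5 genes most like each member by agreement over lists and then by score percentile. Members, lists and rules were chosen with earlier results of these data known, and the limits of the sites after summits were seen. The assignment and the permutation test were tested on simulated data, and Fisher's test and the adjustment were not. A planned motif search was not run, and no sequence was used here. Tables were read with pandas 2.3.3 under Python 3.11.15, tests used scipy 1.17.1, numpy 2.4.6 and statsmodels 0.14.6, and plots matplotlib 3.10.9.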

Additional observations from a re-analysis of the deposited data

How the results depend on the processing

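The number of the 4 genes with a peak did not move by over 1.5 times for CLR-1 on Avicel at 4 h or with V5 under any alternative run. Equally long lists (the 701 best-scored peaks) gave 2 for CLR-1 at 24 h (11.4% of all genes), 0 for CLR-2 at 4 h (1.46%) and 1 for XLR-1 on xylan (9.08%). Within 1500 bp sucrose gave 1 (4.01% of all genes) and xylan 1 (5.07%). A fold of at least 5 gave 0 on sucrose, where no gene could pass because the highest fold of list 2 was 3.92, 0 for CLR-2 at 4 h (0.216% of all genes) and 1 for CLR-2 at 24 h (2.33%). An FDR of at most 5% gave 0 for CLR-2 at 4 h (4.64%). Requiring every list gave 1 for CLR-2 at 4 h (3.31% of all genes) and 1 on xylan (4.62%). A score of at least 100 also gave 1 on xylan (5.28%). For XLR-1 on Avicel the deposited gene names gave 2, both alone (26.8% of all genes) and with summits (39.4%). With 1 list sufficing the count was 3, where 80.3% of all genes were called. With 1 list left out, the counts ran from 1 to 2 for CLR-2 at 4 h and on xylan, gh3-3 being lost without list 2 or list 3 of either group.

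Of the 4 genes, 0 were in all lists of one group and none of the other within 1500 bp for CLR-1 against CLR-2 (1.03% of all genes). Equally long lists gave 2 in that pair (1.88%) and 2 for CLR-1 against XLR-1 (3.03%). Deposited names gave 1 for CLR-2 against XLR-1 (2.58%). With 1 list left out the counts ran from 1 to 2 for CLR-1 against XLR-1 (7.81% of all genes where it was 2). They ran from 0 to 1 for CLR-2 against XLR-1 (3.61% where it was 1). For XLR-1 on Avicel against xylan they also ran from 0 to 1 (7.95% where it was 1).

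No position difference passed a threshold, and several changed sign. For Avicel minus sucrose gh1-1 gave -47 bp within 1500 bp, and -47 to 472 bp with 1 list left out. gh3-3 gave 170 bp by peak centres, gh3-6 gave -281 bp by peak centres and -7 to 10 bp with 1 list left out. CLR-1 minus CLR-2 gave 166.5 bp at gh1-1 and 372 bp at gh3-3 by peak centres. By nearest summit or within 1500 bp, gh1-1 gave -715 bp for CLR-1 minus XLR-1 and -667 bp for CLR-2 minus XLR-1, since XLR-1 list 3 then enters with its in-gene peak. Through the same peak, XLR-1 on Avicel minus xylan kept its sign but rose at gh1-1. It was 778 bp by nearest summit (exact permutation p = 0.1) and 738 bp within 1500 bp, against 18.7 bp in the main run. Upstream summits only, an alternative chosen after seeing the data, left 3 of 4 genes for CLR-1 at 24 h. The FDR alternative was not run for that list, which has none.

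No paired analysis was possible because the deposited lists do not say which library each came from and the library numbers are not shared between groups. Unknown depth limits every absence, and a missing peak means here only that none was listed.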
